A study of Saccharomyces cerevisiae with 8 samples.

Results

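The nuclear genes of the tricarboxylic acid (TCA) cycle and of oxidative phosphorylation were followed in RNA recovered with Upf1p from budding yeast (Saccharomyces cerevisiae). All 42 genes of a fixed list were measured, by 44 of the 9275 probe sets tested. A probe set counted if the platform's table gave it exactly 1 gene and that gene was on the list. With 1 probe set per gene, these are 42 of 5656 genes. The TCA cycle supplied 10 genes, complex II 4, complex III 9, cytochrome c 1, complex IV 8 and complex V, the ATP synthase, 10.

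Upf1p is an RNA helicase that nonsense-mediated decay, the pathway that removes mRNAs on which translation ends too early, cannot do without. Of 8 Affymetrix Yeast Genome S98 arrays, 4 held RNA that came down with TAP-tagged Upf1p, the tag being an affinity handle that binds IgG, and 4 held RNA of mock selections, with replicates numbered 1 to 4 in each group. All cells grew in rich medium (YEPD) at 30 °C, and in both groups complexes from cell lysates were caught on IgG Sepharose and released with TEV protease. The labels give neither the strains nor what the mock cells carried. Similar RNA amounts of both selections were purified further, so a ratio speaks of a transcript's share in the selected RNA, not of its amount per cell, and more binding by Upf1p cannot be told apart from less background in the mock.

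The TCA cycle oxidises acetyl units in the mitochondrial matrix and hands electrons to the respiratory chain. Complexes II, III and IV pass these electrons to oxygen, with cytochrome c as the carrier between complexes III and IV. Complex V makes ATP from the proton gradient that complexes III and IV build. Most subunits are encoded in the nucleus, made on cytosolic ribosomes and imported, while a few hydrophobic core subunits are encoded and translated inside the organelle. In yeast grown on glucose many of these nuclear genes are partly repressed.

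Single mRNAs of these pathways were higher or lower in Upf1p-TAP than in mock selections, with as many calls in one direction as in the other. Of the 42 genes, 6 were higher (CYT1, QCR9, RIP1, QCR6, COX8 and ATP4), 6 were lower (FUM1, ATP7, SDH3, LSC2, ATP2 and ATP15) and 30 did not pass the test. The test was limma's moderated test with the pair as a block, and calls had a Benjamini-Hochberg adjusted p below 0.05 over all 9275 probe sets. Of the members 14.3% were thus higher and 14.3% lower, against 19.6% and 15.2% of all 5656 genes, so both shares were near those of all genes or below them. The background was 17.7% and 13.5% over all probe sets, and 20.1% and 13.8% over protein-coding genes. Among the members only FUM1 and ATP7 fell and only CYT1 rose by more than 2-fold, where the background was 5.99% of genes lower and 10.3% higher. The signals of the 2 groups did not overlap for 4 higher and 5 lower members, where the background was 16.1% and 13.1% of genes.

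The median log2 ratio of the members was 0.05, against 0.03 over all genes, and it was -0.03 after quantile normalization and -0.09 after median centring. Within pairs 1 to 4 the members' median was -0.23, 0.01, -0.11 and 0.25. All 42 probe sets had mock signals above the median over the 5656 genes, which describes brightness and was not taken as a measure of abundance. Among the 1097 protein-coding genes with the brightest mock signal, 9.66% were higher and 27.5% lower, with a median of -0.25. Against that set the members had a larger share higher and a smaller share lower, and this difference was not tested. The members' median mock level was at percentile 88.5 of all genes. The ratios of single members ran from -1.43 to 1.17, on the log2(signal + offset) scale used throughout.

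**Figure D1:**
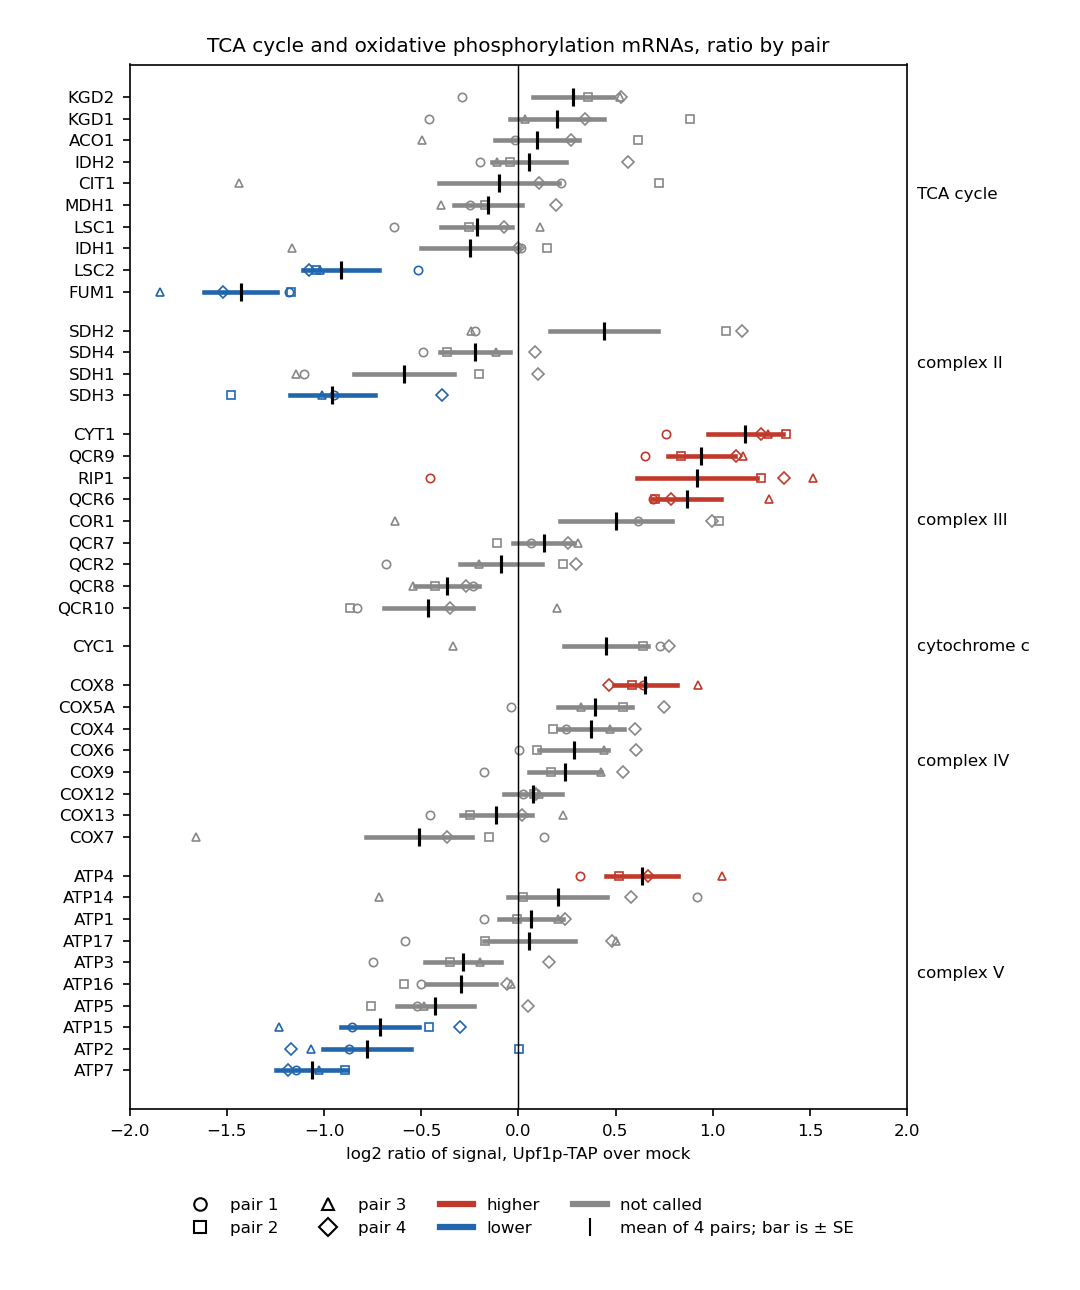
The x axis gives the log2 ratio of Upf1p-TAP over mock signal, with 4 open symbols per gene for the 4 pairs, a tick for the mean and a bar for ± SE. Complex III holds 4 of the 6 higher genes, and FUM1 at -1.43 and CYT1 at 1.17 are the ends of the range.

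In the TCA cycle, 2 of 10 genes (20%) were lower, FUM1 and LSC2, and 0 were higher, with a median log2 ratio of -0.13. Over all genes 15.2% were lower and 19.6% higher. Among the genes with the brightest mock signal 27.5% were lower and 9.66% higher. FUM1 encodes fumarase, which hydrates fumarate to malate and works both in the mitochondrion and in the cytosol. Its signal was 560.3, 496, 373 and 402 on the Upf1p-TAP arrays, against 1274, 1121, 1348 and 1163 on the mock arrays. Every Upf1p-TAP array thus lay below every mock array by a wide gap. The log2 ratio was -1.43 (SE 0.19, limma adjusted p = 6.61e-04), below 0 in 4 of 4 pairs.

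LSC2 and LSC1 encode the beta and alpha subunits of succinyl-CoA ligase, the enzyme that releases succinate. LSC2 had 196, 152, 151 and 156 on the Upf1p-TAP arrays, against 282, 317, 311 and 335 on the mock arrays. The groups did not overlap, and the log2 ratio was -0.91 (SE 0.20, limma adjusted p = 0.00768). LSC1 had 712, 921, 1221 and 983 with Upf1p-TAP, against 1112, 1099, 1129.5 and 1037 in the mock. Its groups overlapped, and its ratio of -0.21 (SE 0.18) did not pass (limma adjusted p = 0.411), so the partner subunits of this enzyme gave a call for one and none for the other. The difference between their ratios was not tested.

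The other TCA cycle genes lay between -0.25 and 0.28 and were not called. The subunit genes of isocitrate dehydrogenase had ratios of -0.25 (IDH1) and 0.05 (IDH2). Those of 2-oxoglutarate dehydrogenase had 0.20 (KGD1) and 0.28 (KGD2). Aconitase (ACO1, 0.09) and mitochondrial malate dehydrogenase (MDH1, -0.16) lay close to 0. CIT1, the mitochondrial citrate synthase gene, had a ratio of -0.10 (SE 0.31) with a wide spread, since its signal was 973, 1212, 350.2 and 781 with Upf1p-TAP, against 835, 734, 955 and 726 in the mock. The array of replicate 3 was the low one there. IDH1 was also lowest on that array, at 103, against a mock signal of 235 in the same pair. The median of the TCA cycle genes was 0.08 without replicate 3, -0.21 without replicate 4 and -0.27 after median centring, while FUM1 and LSC2 stayed called in all 3 cases.

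Complex II, succinate dehydrogenase, belongs to both the cycle and the chain. Of its 4 genes 1 (25.0%) was lower, against 15.2% of all genes. SDH3, which encodes a membrane anchor subunit, had 159, 148, 184 and 243 on the Upf1p-TAP arrays, against 310.1, 421, 374 and 320.0 on the mock arrays. The groups were apart, and the log2 ratio was -0.96 (SE 0.22, limma adjusted p = 0.0102). The call just ended without replicate 2 (limma adjusted p = 0.0521). SDH4, the second anchor, had a ratio of -0.22 (SE 0.18) and was not called. SDH1, the flavoprotein that oxidises succinate, had -0.59 (SE 0.26, limma adjusted p = 0.113), and it was called lower after quantile normalization (-0.73, limma adjusted p = 0.0413) and after median centring (limma adjusted p = 0.0351).

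SDH2, the iron-sulfur subunit, varied most among the pairs of this complex. Its signal was 202, 1025, 523 and 772 with Upf1p-TAP, against 236, 487, 619.8 and 345 in the mock. Pairs 2 and 4 gave log2 ratios of 1.07 and 1.15, and pairs 1 and 3 gave -0.22 and -0.24, so that the mean of 0.44 (SE 0.28) did not pass. The paralogs of the anchor genes, SHH3 and SHH4, were both higher. SHH4 had 235, 475, 275 and 462 with Upf1p-TAP, against 86.5, 62.9, 125 and 63.4 in the mock, giving a ratio of 2.03 in log2 units (SE 0.32, limma adjusted p = 0.00159). SHH3 had a ratio of 1.30 (limma adjusted p = 0.0158) from dim signals of 31.9 with Upf1p-TAP and 11.5 in the mock on average, so that the size of its ratio rests on the offset and ran from 0.82 to 1.71 over 10 alternatives. It was not called without an offset or without replicate 4 (highest limma adjusted p = 0.0628). SDH9, the paralog of SDH1, had 0.05 and was not called, at mean signals near background in both groups.

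Complex III, the cytochrome bc1 complex, had 4 of 9 genes higher and 0 lower, with a median log2 ratio of 0.50 (0.35 after quantile normalization, 0.36 after median centring and 0.33 without replicate 2). The share of 44.4% higher stood against 19.6% of all genes. Only 3 of the 9 genes were higher without the pair as a block, after quantile normalization or after median centring. The same count of 3 held without replicate 2 or 4, among other alternatives. CYT1 encodes cytochrome c1, the subunit that passes electrons to cytochrome c. It had 428, 479, 532 and 454 on the Upf1p-TAP arrays, against 251, 182, 216 and 189 on the mock arrays. No Upf1p-TAP value came near a mock value, and the log2 ratio was 1.17 (SE 0.19, limma adjusted p = 0.00219).

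QCR9 and QCR6 encode small accessory subunits, and the QCR9 gene has an intron. QCR9 had 1115, 1444, 1442 and 1892 with Upf1p-TAP, against 709, 807, 644 and 869 in the mock, giving a ratio of 0.94 in log2 units (SE 0.17, limma adjusted p = 0.00358). QCR6 had 1241, 1762, 1760.2 and 1418 with Upf1p-TAP, against 765, 1081, 719 and 819.8 in the mock, giving a ratio of 0.87 in log2 units (SE 0.18, limma adjusted p = 0.0058). Both genes were higher in 4 of 4 pairs with no overlap between the groups. QCR10, the other gene of the complex with an intron, went the other way without passing, at -0.46 (SE 0.23, limma adjusted p = 0.156).

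RIP1 encodes the Rieske iron-sulfur protein, the subunit that takes electrons from ubiquinol. Its signal was 264, 1224, 1796 and 1445 on the Upf1p-TAP arrays, against 364, 512, 626 and 557 on the mock arrays. Replicate 1 alone lay below its mock partner, while the other Upf1p-TAP arrays exceeded all mock arrays. The mean log2 ratio of 0.92 (SE 0.31, limma adjusted p = 0.0477) became 1.38 without replicate 1 (limma adjusted p = 0.00257). The call ended without replicate 2, 3 or 4, without the pair as a block (limma adjusted p = 0.183) and under 5 further settings. A separate control probe set for RIP1, outside the test, had 92.6, 426, 317 and 428 with Upf1p-TAP, against 110, 201, 269 and 215 in the mock. Its pairs gave log2 ratios of -0.24, 1.07, 0.23 and 0.98, again with replicate 1 as the pair below 0.

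The array of Upf1p-TAP replicate 1 stood apart in another way. The signal ratio of the ACT1 control probe sets at the 3′ and 5′ ends of the actin mRNA, a measure of RNA integrity and labelling, was 13.5 there and between 2.45 and 3.37 on the other Upf1p-TAP arrays. On the mock arrays it was 6.17 in replicate 1 and between 1.99 and 3.04 in the others. Of the 42 members, 25 (59.5%) had their lowest Upf1p-TAP signal on the array of Upf1p-TAP replicate 1, as had 42.6% of all protein-coding genes. Among the mock arrays, replicate 1 was the lowest for 42.9% of the members and 33.4% of protein-coding genes. Mock replicate 4 was the lowest for 31.0% and 37.1%. The part of Upf1p-TAP replicate 1 in the low RIP1 value was not tested.

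The remaining complex III genes were not called. The core subunit genes COR1 and QCR2 had ratios of 0.50 (SE 0.29) and -0.09 (SE 0.21), and COR1 was called higher without replicate 3 (0.88, limma adjusted p = 0.0226). QCR7 had 2191, 2442, 1900.0 and 2282 with Upf1p-TAP, against 2095, 2633, 1533 and 1910.4 in the mock, and its ratio of 0.13 had an SE of 0.16. QCR8 had -0.37 (SE 0.16) on its bright probe set, which was called lower after median centring (-0.51, limma adjusted p = 0.0444), and -0.33 on its second, dim probe set.

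**Figure D2:**
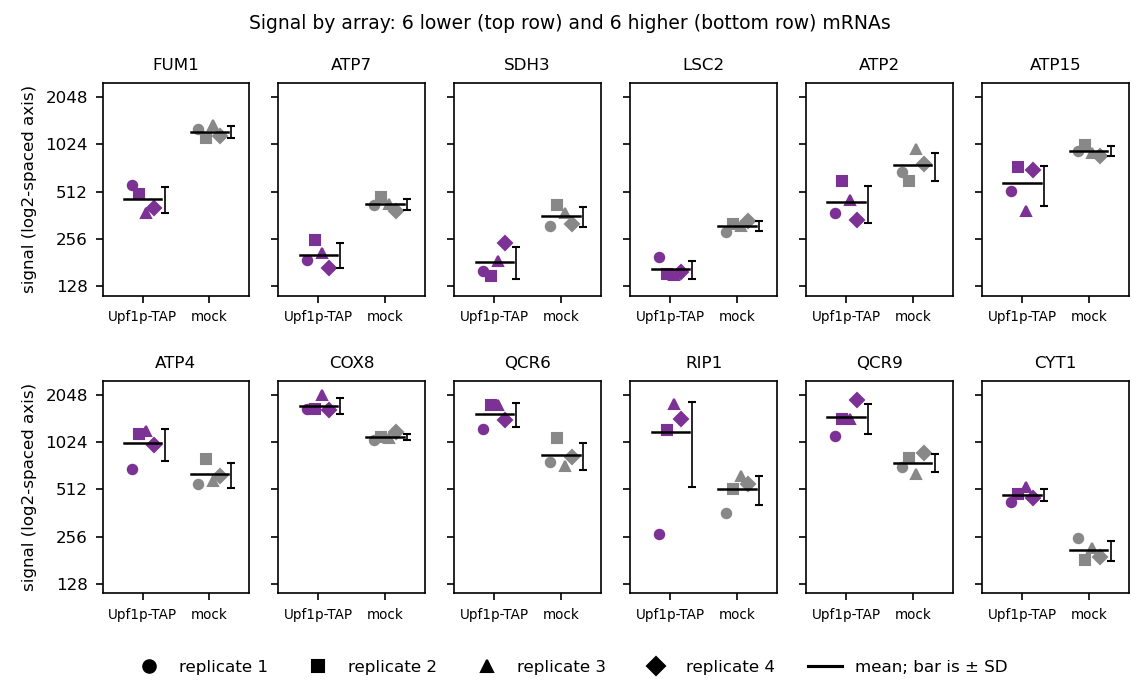
Signal on each of the 8 arrays, on a log2-spaced axis, for the 6 lower genes in the top row and the 6 higher genes in the bottom row, with the group mean as a line and ± SD as a bar. The groups are apart for FUM1, ATP7, SDH3, LSC2, ATP15, COX8, QCR6, QCR9 and CYT1, while RIP1 replicate 1 with Upf1p-TAP, at 264, lies below the mock arrays.

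CYC1, the gene of the main cytochrome c, had 1394, 1637, 693 and 1802 on the Upf1p-TAP arrays, against 841, 1049, 877 and 1052 on the mock arrays. Only replicate 3 lay below its mock partner. The log2 ratio of 0.45 (SE 0.22) did not pass with all pairs (limma adjusted p = 0.145), and it was 0.71 without replicate 3 (limma adjusted p = 0.0161). CYC7, which encodes the isoform used when oxygen is scarce, was lower at -0.84 (SE 0.25, limma adjusted p = 0.0299), with means of 55.6 ± 10.4 with Upf1p-TAP and 105 ± 35.4 in the mock (SD, n = 4 each). Its call ended without an offset and without replicate 1, 3 or 4 (highest limma adjusted p = 0.121). The difference between CYC1 and CYC7 was not tested.

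Complex IV, cytochrome c oxidase, had 1 of 8 genes (12.5%) higher and 0 lower, with a median log2 ratio of 0.26 (0.12 after median centring and 0.16 without replicate 4). The background over all genes was 19.6% higher and 15.2% lower. COX8, a small membrane subunit, had 1657, 1664, 2053 and 1631 on the Upf1p-TAP arrays, against 1059.8, 1110.0, 1080.2 and 1181 on the mock arrays. The groups were apart by more than their own ranges, and the log2 ratio was 0.65 (SE 0.16, limma adjusted p = 0.0151). The call ended after median centring (0.51, limma adjusted p = 0.0598) and without replicate 2 (limma adjusted p = 0.0528).

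COX4, COX5A, COX6 and COX9, nuclear subunits of the same enzyme, had ratios of 0.37, 0.39, 0.29 and 0.24 and were not called. COX12, whose product faces the intermembrane space, had 2208, 2019, 1756 and 1837 with Upf1p-TAP, against 2175, 1910.3, 1630.2 and 1725 in the mock. The paired values differed little, and the ratio was 0.07 (SE 0.15). COX13 had -0.11 (SE 0.18). COX7 had 1167, 1161, 346 and 1053 with Upf1p-TAP, against 1063, 1290.3, 1102 and 1361 in the mock. Replicate 3 with Upf1p-TAP was far below the other arrays, and the ratio of -0.51 (SE 0.27) did not pass (limma adjusted p = 0.189). COX5B, the low-oxygen isoform of COX5A, had -0.20 (SE 0.20) and was not called.

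Complex V had 3 of 10 genes (30.0%) lower and 1 higher, with a median log2 ratio of -0.29 (-0.43 after median centring and -0.18 without replicate 1). Over all genes 15.2% were lower and 19.6% higher, and among the genes with the brightest mock signal 27.5% were lower and 9.66% higher. The peripheral stalk, which holds the catalytic head still, contained calls of both directions. ATP7, stalk subunit d, had 187, 253, 206 and 167 on the Upf1p-TAP arrays, against 419, 473, 425 and 385 on the mock arrays. All Upf1p-TAP values were below all mock values, and the log2 ratio was -1.06 (SE 0.18, limma adjusted p = 0.00254).

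ATP4, stalk subunit b, had 692, 1149, 1198 and 984 with Upf1p-TAP, against 554, 801, 577 and 619 in the mock. It was higher in 4 of 4 pairs although the groups overlapped, with a log2 ratio of 0.64 (SE 0.18, limma adjusted p = 0.0277). That call ended without the pair as a block (limma adjusted p = 0.0615), after median centring, and without replicate 2, 3 or 4 (highest limma adjusted p = 0.0908). ATP5, which joins stalk and head, had -0.43 (SE 0.20) and was not called. It was called lower after median centring (-0.57, limma adjusted p = 0.0459). ATP14, stalk subunit h, had 0.20 on the brighter of its probe sets and -0.32 on the other, and neither was called.

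In the catalytic head and the central stalk that turns inside it, ATP2 and ATP15 were lower. ATP2 encodes the beta subunit of the head, which carries the catalytic sites, and had 372, 599, 451 and 339 with Upf1p-TAP, against 684, 597, 952 and 768 in the mock. Pair 2 had a ratio of 0.01, and the mean log2 ratio was -0.78 (SE 0.23, limma adjusted p = 0.0282). ATP15, the epsilon subunit of the central stalk, had 513, 737, 382 and 701 with Upf1p-TAP, against 934, 1014, 902 and 863 in the mock. The groups were apart, at a log2 ratio of -0.71 (SE 0.20, limma adjusted p = 0.0256). Neither call held in all sets of 3 pairs, since ATP2 was not called without replicate 1, 3 or 4 (highest limma adjusted p = 0.118) and ATP15 without replicate 1, 2 or 3 (highest limma adjusted p = 0.0842). ATP2 also lost its call without an offset (limma adjusted p = 0.0505).

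The alpha subunit gene ATP1, the partner of ATP2 in the head, had 1587, 1231, 1574 and 1454 with Upf1p-TAP, against 1793, 1236, 1368 and 1229 in the mock. Its ratio of 0.07 (SE 0.16) did not pass. The gamma and delta subunit genes ATP3 and ATP16, the other parts of the central stalk, had -0.29 and -0.30, and ATP17, a membrane subunit, had 0.06. None of these was called.

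**Figure D3:**
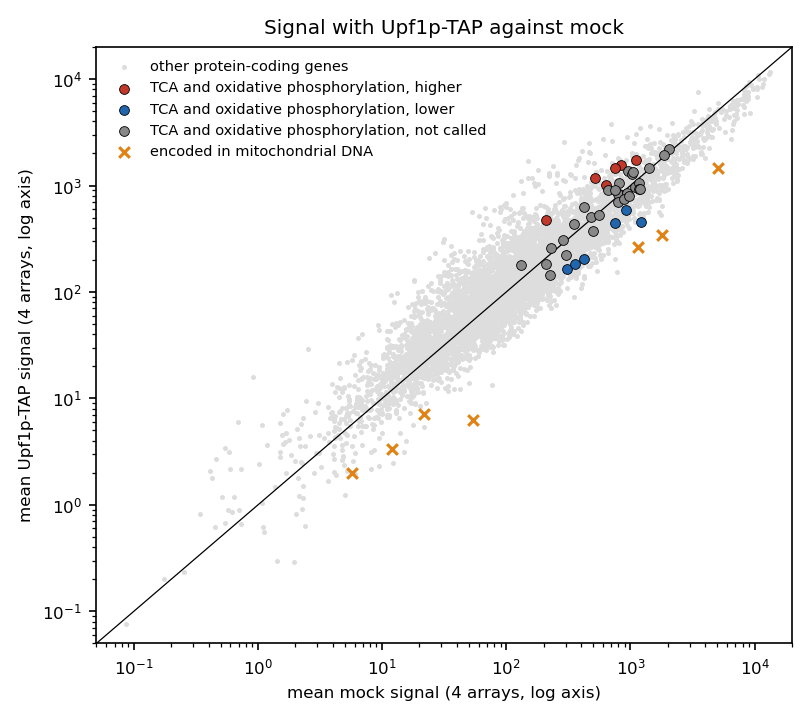
Mean Upf1p-TAP signal against mean mock signal on log axes for protein-coding genes, with 42 TCA cycle and oxidative phosphorylation genes as large points and mitochondrially encoded subunits as crosses. The large points lie along the diagonal at mock signals from 131 to 2043, and the crosses lie below it.

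Subunits of the same complexes that are encoded in mitochondrial DNA had far less signal with Upf1p-TAP. Of 7, 6 were lower and 0 higher, with a median log2 ratio of -1.80, against 15.2% lower over all genes. ATP6, a proton channel subunit of complex V, had 272, 263, 326 and 186 on the Upf1p-TAP arrays, against 938, 1397, 977 and 1309 on the mock arrays. OLI1, the rotor ring subunit, had 1913, 1855, 1096 and 1001 with Upf1p-TAP, against 6980.1, 4699, 3454 and 5085 in the mock. The groups were far apart for both, with log2 ratios of -2.13 (ATP6) and -1.80 (OLI1). A second OLI1 probe set was dim, with mean signals of 0.72 with Upf1p-TAP and 2.44 in the mock. Its ratio of -0.41 was not called.

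Mitochondrial COX1 (-2.62), the catalytic subunit of complex IV, COB (-2.46), the cytochrome b of complex III, COX3 (-1.21) and ATP8 (-0.95) were lower as well, and COX2 (-0.74) was not called. Of these only COX1 was bright, with mean signals of 344 with Upf1p-TAP and 1779 in the mock. Further, dim probe sets of COX1 (-0.90 and -1.73) and COB (-1.64) were called lower, and that of ATP8 (-0.81) was not called. COB, COX2, COX3 and ATP8 had mean Upf1p-TAP signals between 1.99 and 7.18, so the sizes of their ratios rest on the offset, and the call of ATP8 ended under 7 of 10 alternatives. Nuclear partners in the same complexes had medians of 0.50, 0.26 and -0.29 in complexes III, IV and V. The difference between nuclear and mitochondrial subunits was not tested.

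Other nuclear genes of the pathway were called in both directions. Over 126 measured genes on 6 lists, 24 (19.0%) were higher and 28 (22.2%) lower, with a median log2 ratio of -0.13 (-0.27 after median centring). Over all genes 19.6% were higher and 15.2% lower, so the share of higher genes was that of the background. The same background applies to the counts of each of the 6 lists. Enzymes next to the cycle held some of the highest ratios, with 5 of 19 higher and 3 lower. PCK1, which opens gluconeogenesis from oxaloacetate, had 421, 482, 523 and 540.3 with Upf1p-TAP, against 58.6, 74.6, 73.8 and 68.4 in the mock, giving a ratio of 2.76 in log2 units (SE 0.19, limma adjusted p = 3.77e-05). ICL1, the isocitrate lyase of the glyoxylate bypass, had 262, 371, 482 and 282 with Upf1p-TAP, against 62.6, 71.8, 55.0 and 60.4 in the mock, giving a ratio of 2.37 in log2 units (SE 0.23, limma adjusted p = 1.25e-04). The groups were far apart in both cases. MLS1, the malate synthase gene of the same bypass, had 0.02 and was not called, and it was named after its value was seen.

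CTP1 (0.97), the mitochondrial citrate carrier gene, and PDB1 (0.83), a subunit gene of pyruvate dehydrogenase, were higher too. LAT1 (-1.22), which encodes another subunit of pyruvate dehydrogenase, and OSM1 (-0.95), a fumarate reductase gene, were lower. The OSM1 call ended without replicate 4 (limma adjusted p = 0.0609). LAT1 had 773, 671, 231 and 549 with Upf1p-TAP, against 1266, 1045, 1281 and 1166 in the mock. Its pairs all fell, the third by 2.45 on the log2 scale.

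Isoforms and paralogs of the members gave 3 of 12 higher (25.0%) and 2 lower (16.7%), near the 19.6% and 15.2% of all genes. Besides SHH3, SHH4 and CYC7, IDP2 (1.80), the cytosolic isocitrate dehydrogenase gene, was higher, and CIT2 (-0.97), the peroxisomal citrate synthase gene, was lower. CIT2 had 212, 377, 157 and 450.4 with Upf1p-TAP, against 646, 495, 554 and 488 in the mock. Its call ended without an offset and without replicate 1 or 3 (highest limma adjusted p = 0.127), and its sequence is close to that of CIT1, so that the probe sets may read each other's transcript. CIT3 (-0.27), MDH2 (-0.12), MDH3 (-0.28), IDP1 (0.24) and IDP3 (0.31) were not called.

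A list of assembly factors, which also held the ubiquinone synthesis genes COQ1 to COQ6 and CAT5, had many lower calls. Of all 45 genes listed, 17 (37.8%) were lower and 7 higher, with a median log2 ratio of -0.32. The background was 15.2% lower over all genes and 14.3% of the members. COQ2, COQ5 and CAT5 were among the lower calls, and those of COQ5 and CAT5 ended under some alternatives. These shares were not tested against each other. CYT2, the lyase that attaches haem to cytochrome c1, had 96.0, 72.7, 85.1 and 106 with Upf1p-TAP, against 302, 414, 285 and 414 in the mock. Its log2 ratio was -1.92 (SE 0.21, limma adjusted p = 2.79e-04), while CYT1, which encodes the protein it modifies, was higher at 1.17.

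COX17, the copper chaperone of complex IV, had 251, 246, 124 and 261 with Upf1p-TAP, against 453, 699.6, 427 and 813 in the mock, giving a ratio of -1.42 in log2 units (SE 0.21, limma adjusted p = 0.00118). COX14 (-1.45) and COA3 (-1.26), which act with newly made Cox1p, ATP11 (-1.37), a chaperone of the catalytic head, and SDH7 (-1.32), an assembly factor of complex II, were lower too. All of these had groups that did not overlap. Within complex II assembly, SDH5 (-1.47) was lower, SDH6 (0.94) was higher and SDH8 (-0.40) was not called; these 3 genes were named after their values were seen.

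**Figure D4:**
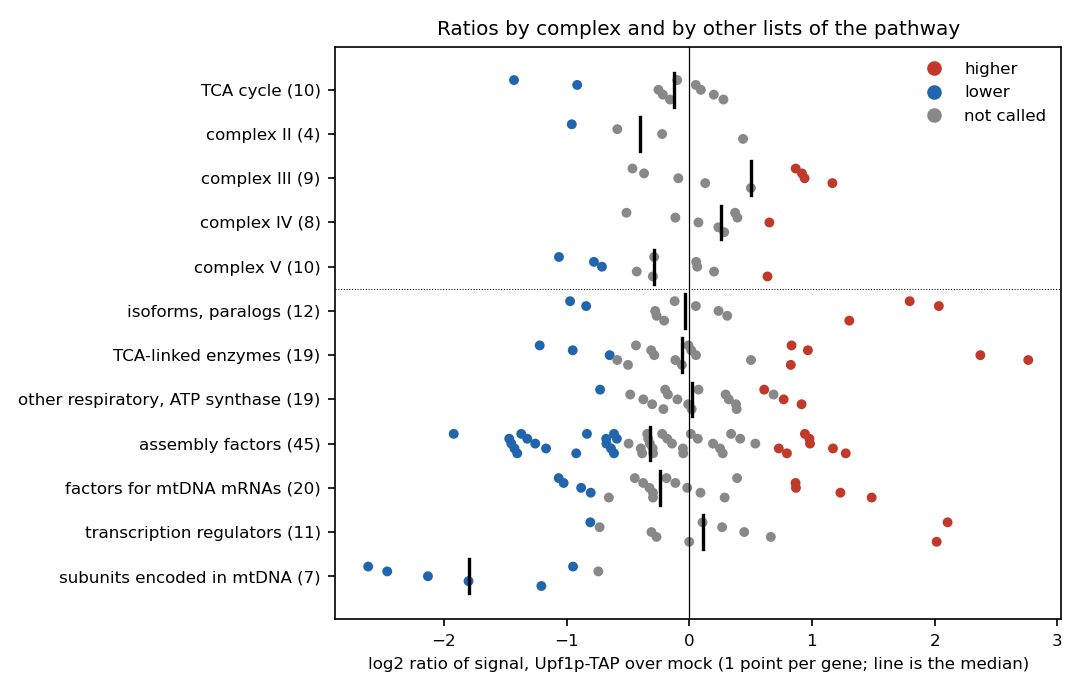
Each point is the log2 ratio of Upf1p-TAP over mock signal for 1 gene, with the list median as a line; the upper block holds the TCA cycle and complexes II to V, the lower block the other lists, with the number of genes in brackets. The 7 subunits encoded in mitochondrial DNA lie at the low end with a median of -1.80. The assembly factors, a list that includes ubiquinone synthesis genes, have a median of -0.32.

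Other respiratory and ATP synthase proteins gave 3 of 19 higher, GUT2 (0.77), CYB2 (0.92) and AAC1 (0.61), and 1 lower, ATP20 (-0.73). Each of these 4 calls ended when some single pair was left out, with highest limma adjusted p-values of 0.134, 0.117, 0.159 and 0.128 over the alternatives. NDE1 (-0.48), the external NADH dehydrogenase gene, and COX26 (0.69) were not called. Nuclear factors for the mitochondrial mRNAs gave 4 of 20 higher and 4 lower. AEP1 (1.49), needed for translation of OLI1 mRNA, PET54 (1.23), needed for COX3, and MSS18 (0.87), needed for splicing of COX1, were higher. MSS51 (-1.06) and PET111 (-1.02), translational activators for COX1 and COX2, and NCA2 (-0.88) were lower. The call of MSS18 ended without replicate 4 (limma adjusted p = 0.0508), and that of NCA2 without replicate 4 or without the pair as a block (highest limma adjusted p = 0.0795).

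Among 11 listed regulators of respiratory genes, which included the mRNA-binding protein PUF3, 2 were higher and 1 lower. HAP5, a subunit of the HAP complex that activates respiratory genes, had 288, 347, 346 and 365 on the Upf1p-TAP arrays, against 80.4, 69.2, 82.5 and 67.7 on the mock arrays, giving a ratio of 2.11 in log2 units (SE 0.20, limma adjusted p = 1.18e-04). The other subunit genes HAP2 (-0.31), HAP3 (0.00) and HAP4 (0.11) were not called, and these were named after their values were seen. RTG3 (2.02), a transcription factor of the retrograde response from mitochondria to nucleus, was higher, and RTG2 (-0.81), a sensor of that pathway, was lower. The RTG2 call ended without replicate 2 or 4 (highest limma adjusted p = 0.0752). HAP1 (-0.73), RTG1 (0.66) and ROX1 (0.45) did not pass. On its 2 brighter probe sets, both marked as shared, HAP1 had 0.23 and 0.05 and was not called either.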

How the data were processed

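RNA of 4 Upf1p-TAP and 4 mock selections was measured, 1 array each. The authors deposited intensity values on a linear scale. GCOS is named per the submitters' processing notes, with no version. The values showed a common scaling, with a trimmed mean between 250.2 and 250.3 on every array. With 4 arrays a group, their number sets the precision.

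Control probe sets (60 of 9335) were left out. The platform table gave 1 gene for 6504 of the 9275 others, and symbols were updated through RefSeq's gene table. A gene with several probe sets was shown by a plain one before one marked as shared, then by the brightest. limma 3.58.1 in R 4.3.3 fitted log2(intensity + 4.09) with the group and the pair (eBayes with trend, two-sided), the offset being the 10th percentile, and was tested on simulated data. SE is limma's moderated standard error. The design text speaks of independent pairs, and deviations from the group means correlated at 0.18 to 0.55 between arrays of the same number and at -0.54 to 0.35 between others. Deviations within a group cancel out, so the low end between others is partly built in. Of the 8 arrays, 5 correlated best with the array of the same number in the other group. The labels name no separate cultures, so p-values cover only how these selections varied, which may be technical.

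Alternatives changed the block, offset, scaling, dim-probe filter, variance trend, probe-set rule and pairs used. The members and lists were chosen with earlier results of these data known. Named were all members, all measured isoforms, paralogs and mitochondrial subunits, and the 6 genes of each other list with the smallest p. Outside this rule were the ubiquinone synthesis genes, PUF3 and the genes marked above as named after their values were seen.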

Additional observations from a re-analysis of the deposited data

Results flagged for a closer look

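In 5 of 84 groups of 4 arrays (42 genes in 2 groups), 1 array lay far from the other 3 by Dixon's ratio, and chance alone gives about 1 in 20. All 5 were Upf1p-TAP arrays. COX7 had 346 in replicate 3, against 1053 on the next array. COX8 had 2053 in replicate 3, above 1664 on the next. LSC2 had 196 in replicate 1, above 156 on the next. COX9 had 663 in replicate 1, below 944 on the next. MDH1 had 1224 in replicate 4, above 1013 on the next.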

How the results depend on the processing

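Of the 12 called members, 6 (FUM1, LSC2, ATP7, CYT1, QCR9 and QCR6) kept call and direction under all 12 alternatives: no replicate block, no offset, a higher offset (16.0), quantile normalization, median centring, a filter on dim probe sets, eBayes without a trend, a mean over a gene's probe sets, and each pair left out in turn. The other 6 lost the call in at least 1, 5 of the 30 uncalled members gained one, and no called member changed sign. Without the block 10 of the 12 stayed called (RIP1 and ATP4 did not), and complex V had 0 higher. Median centring lowered the ratio of the median probe set to -0.14, against 0.00 as deposited, and 42.7% of calls were then higher, against 56.8% (49.6% after quantile normalization). It left 3 members higher and 9 lower, with 2 lower in complex II, 1 lower in complex III, 0 higher in complexes IV and V, and a median of -0.27 for the other genes of the pathway. Quantile normalization gave 2 lower in complex II. With the filter on dim probe sets 3 mitochondrial subunits remained, all 3 lower. Leaving out 1 pair gave 3 to 6 members higher (3 without replicate 2) and 4 to 5 lower. By complex it gave 0 to 1 lower in complex II, 3 to 4 higher in complex III and 0 to 1 higher in complexes IV and V. In complex V it gave 1 to 2 lower, against 3 with all pairs. Other genes of the pathway had 14 to 23 higher and 18 to 19 lower, and all probe sets 1076 to 1384 higher and 775 to 953 lower, fewest without replicate 4. The cause of these shifts was not tested beyond the fewer arrays. Signals near the offset limit the mitochondrial subunits COB, COX2, COX3 and ATP8.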

Other observations

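Over the 42 genes, log2 ratios correlated between the pairs of selections with r from 0.42 to 0.81 (Spearman's rho 0.38 to 0.83), so the agreement was weak for some pairs and close for others. This describes genes measured together on arrays that were scaled alike. Ratio and gene length had rho = -0.13 among the members (n = 42) and rho = -0.02 over all protein-coding genes (n = 5486).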
